A study of Mus musculus with 6 samples.

Results

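The lysyl oxidase family of the mouse was followed at the RNA level in ovarian surface epithelial cells with and without TGFB1. Its members were taken by gene symbol, Lox, Loxl1, Loxl2, Loxl3 and Loxl4, and made up 5 of the 35688 gene rows measured; each symbol had 1 row. The cells were the mouse line m1102, derived from the layer that covers the ovary, and were grown in serum-containing medium with insulin-type supplements and EGF. The groups were 3 libraries of untreated cells and 3 of cells that received TGFB1 at 10 ng/mL for 4 days, so the comparison holds 1 line, 1 dose and 1 time. Whether the samples of a group came from separate cultures is not stated, so the p-values rest on differences among these libraries alone, which may be technical.

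Lysyl oxidases are secreted, copper-dependent amine oxidases. They oxidise lysine and hydroxylysine side chains of collagen and elastin to reactive aldehydes, which then join neighbouring chains into the covalent cross-links that make matrix fibres stiff and insoluble. Each enzyme binds copper through a histidine-rich stretch and carries a cofactor made from one of its own lysines and tyrosines. Lox and Loxl1 have a propeptide that is cut off outside the cell, whereas Loxl2, Loxl3 and Loxl4 carry scavenger receptor cysteine-rich domains. Lox is a well-known TGFB1 target in fibroblasts, and in the ovary the surface layer and the matrix beneath it are rebuilt after each ovulation.

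The coding sequence of the copper-binding stretch is shown for Loxl1 to Loxl4. The stretch is found in every member and bears on whether their reads can be told apart. Each run is the spliced coding strand, 5′ to 3′, 48 bases for 16 residues from the GENCODE M21 transcripts. Capitals mark the codons of the 4 histidines in the stretch.
Loxl1: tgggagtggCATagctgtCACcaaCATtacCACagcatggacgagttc
Loxl2: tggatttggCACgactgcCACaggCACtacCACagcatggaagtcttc
Loxl3: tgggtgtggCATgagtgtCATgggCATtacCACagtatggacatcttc
Loxl4: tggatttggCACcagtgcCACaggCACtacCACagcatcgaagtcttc
The stretch crosses an exon junction in all 4 genes. On GRCm38 it lies within chr9:58293705-58294381 in Loxl1 (minus strand, exons 3 and 4) and chr14:69682316-69689052 in Loxl2 (plus strand, exons 10 and 11). In Loxl3 it lies within chr6:83049995-83050140 (plus strand, exons 10 and 11) and in Loxl4 within chr19:42598792-42599899 (minus strand, exons 11 and 12). Loxl2 and Loxl4 have 45 of the 48 bases in common, Loxl2 and Loxl3 37, and Loxl1 and Loxl4 32. No run of 31 bases occurs in more than 1 of these 4 genes.

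Over the whole translated coding sequence the family has 2 branches. Lox and Loxl1 were identical at 51.5% of 392 aligned residues, and the pairs among Loxl2, Loxl3 and Loxl4 at 55.7% to 56.4%. Pairs drawn from both branches were identical at 33.2% to 39.4%.

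On GRCm38, Lox (ENSMUSG00000024529) lies on chromosome 18 from 52516067 to 52529867 on the minus strand. Loxl1 (ENSMUSG00000032334) lies on chromosome 9 from 58287738 to 58313186 (minus) and Loxl2 (ENSMUSG00000034205) on chromosome 14 from 69609068 to 69695834 (plus). Loxl3 (ENSMUSG00000000693) lies on chromosome 6 from 83034173 to 83052562 (plus) and Loxl4 (ENSMUSG00000025185) on chromosome 19 from 42593982 to 42612813 (minus). Of the 31-base words in the transcripts of Lox, 0.0842% occur in another gene, and of those of Loxl1 0.0918%; Loxl4 shares none. For Loxl2 the share is 46.4%, nearly all of it (43.3%) with Gm21451, an annotated unprocessed pseudogene on the same chromosome that is listed at 0 in all 6 libraries. The Loxl2 values are therefore uncertain to that extent, since reads from the shared words fit either gene; the remaining words of Loxl2 occur in no other gene. Loxl3 shares 9.84% with Htra2, a gene on the opposite strand that overlaps it by 1297 bases and was lower in every TGFB1 library (61.6 to 66.02 TPM) than in any untreated one (79.9 to 89.5 TPM). Strand use in the counting is not stated, and the part of Htra2 reads in the Loxl3 values was not tested. Among the other genes described, Fbn1 (19.9%), Ctgf (19.7%), Plod3 (12%), Commd1 (10.6%), Aoc2 (10.7%), Wdr89 (15.2%) and Krt8 (36%) also share over 10% of these words with another gene, and their values are uncertain to that extent.

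Abundances are on a TPM scale, corrected for transcript length, so levels of different genes can be compared; the read depth is unknown. TGFB1 replicate 1 lay apart from the other treated libraries, at 46.6 on the first principal component against 20.2 and 18.1, with the untreated libraries at -29.9 to -27.1. TGFB1 targets checked the labels. Ctgf, a matricellular gene, rose (log2 fold change 2.70), as did Ltbp3, a latent TGFB binding protein gene (1.16), and Skil, a SMAD corepressor gene (0.57). Smad7, an inhibitory SMAD gene, did not pass (0.29). Tgfbi was too low for the main fit, and its groups overlapped (0.105 to 0.328 TPM without and 0.114 to 0.444 TPM with TGFB1). Of 12 markers of ovarian surface epithelium and mesothelium 9 could be tested, with Wt1 at 103 to 194 TPM, while Krt8 and the transcription factor gene Lhx9 stayed under 0.5 TPM in every library. Summed, that list lay at 2218 to 2334 TPM in the untreated and 1083 to 1494 TPM in the TGFB1 libraries, and 5 of the 9 were called lower, 1 of which, Upk3b, lost its call without any single untreated replicate (limma adjusted p up to 0.107). The part of this shift in the results below was not tested; in bulk RNA, fewer cells of a type and less RNA per cell cannot be told apart.

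After TGFB1, 3 of the 4 lysyl oxidase genes that passed the abundance filter (a mean of at least 1 TPM) rose and none fell, also at an unadjusted p under 0.05. Lox rose about 8-fold, Loxl1 and Loxl2 rose by less than 2-fold, Loxl3 did not pass the test, and Loxl4 was close to 0 throughout. A gene is said to rise or fall, or is called, where limma's adjusted p over all tested genes was under 0.05. Of the 12257 genes tested, 15.8% were called higher and 14.6% lower, 30.4% in all, and the median log2 fold change of all genes was 0.015. These shares are the background for the counts of called genes in every list. Called genes split into 1937 higher and 1788 lower; with each library rescaled on all but its mitochondrial genes and 20 top genes the split was 2376 genes higher with TGFB1 and 1411 genes lower with TGFB1. The groups did not overlap, with TGFB1 higher, for 4 of the 5 members, including Loxl4, which was under the filter; among tested genes that held for 26.3%, and for 49.8% in either direction.

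Lox, the founding member, was measured at 143, 170 and 176 TPM in untreated replicates 1 to 3 and at 1768, 1116 and 1005 TPM in TGFB1 replicates 1 to 3. All 3 treated libraries lay far above the untreated ones, and TGFB1 replicate 1 stood above the others of its group. The means were 163 ± 17.9 and 1296 ± 413 TPM (SD, n = 3 per group here and throughout), a ratio of 7.96. On the scale of log2(TPM + 1) the difference was 2.95 (SE 0.209, 95% interval 2.45 to 3.44, limma adjusted p = 0.000362). By level, Lox ranked between 953rd and 1196th of all gene rows in the untreated libraries and 62nd, 122nd and 152nd in TGFB1 replicates 1, 2 and 3. By fold change it ranked 20th among the tested genes. Without TGFB1 replicate 1 the log2 fold change was 2.70, and over all 18 alternative settings it ran from 2.68 to 3.11 with adjusted p at most 0.00449.

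Loxl1, which acts mainly on elastic fibres, was at 42.2, 45.4 and 40.1 TPM without and at 78.3, 75.8 and 74.8 TPM with TGFB1. The treated libraries were nearly level with each other, unlike those of Lox: the coefficient of variation among them was 2.34% for Loxl1 and 31.8% for Lox. The means, 42.5 ± 2.65 and 76.3 ± 1.78 TPM, gave a ratio of 1.79 and a log2 fold change of 0.83 (SE 0.0654, limma adjusted p = 0.00053, at most 0.00552 over the alternatives).

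Loxl2, which is known for cross-linking collagen IV of basement membranes, was at 132, 165 and 150 TPM in the untreated and 296, 241 and 233 TPM in the treated libraries. The groups did not overlap, and TGFB1 replicate 1 was again the highest. The means were 149 ± 16.7 and 257 ± 34.4 TPM, a ratio of 1.72 (log2 fold change 0.78, SE 0.118, limma adjusted p = 0.00449, at most 0.0227 over the alternatives). Without TGFB1 replicate 1 the log2 fold change was 0.67.

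Loxl3, a relative of Loxl2 with activity towards collagen and elastin, was at 15.4, 14.9 and 20.2 TPM without and 18.6, 16.1 and 17.5 TPM with TGFB1. The groups overlapped, and untreated replicate 3 was the highest of all 6 libraries. The log2 fold change was 0.058 with a 95% interval of -0.24 to 0.35 (limma adjusted p = 0.756), so a rise of the size seen for Loxl1 lies outside the interval but a small change in either direction does not. Loxl4 was at 0.129, 0.0907 and 0.126 TPM and at 0.176, 0.147 and 0.174 TPM. Every treated value lay above every untreated one, yet all were under 0.2 TPM, and without the filter the log2 fold change of 0.064 was not called (limma adjusted p = 0.270). At this level the pseudocount sets the log2 fold change of Loxl4, which was 0.31 with a pseudocount of 0.1 and 0.014 with 5, not called with either (adjusted p = 0.460 and 0.252); the ratio of the means was 1.44.

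**Figure D1:**
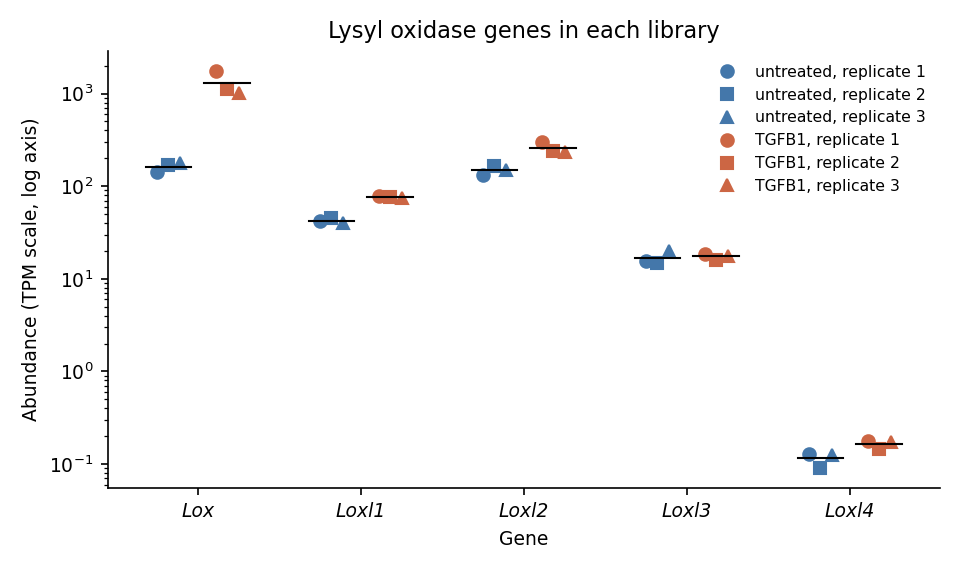
Abundance of the 5 lysyl oxidase genes (TPM scale, log axis) in each library; symbols mark the replicate, colours the group and black bars the group means. Lox rises from a mean of 163 to 1296 TPM, Loxl1 and Loxl2 by less than 2-fold, Loxl3 overlaps between groups and Loxl4 stays under 0.2 TPM.

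The order of the levels was Lox, Loxl2, Loxl1, Loxl3 and Loxl4 in all 6 libraries. In untreated cells the first neighbours were close: the ranges of Lox (143 to 176 TPM) and Loxl2 (132 to 165 TPM) overlapped, and the ratio of Lox to Loxl2 was 1.08, 1.03 and 1.17. With TGFB1 that ratio was 5.97, 4.63 and 4.31. Loxl2 exceeded Loxl1 by a mean factor of 3.51 ± 0.332 without and 3.36 ± 0.369 with TGFB1. The ratio of Loxl1 to Loxl3 was 2.59 ± 0.544 without and 4.39 ± 0.274 with TGFB1. Apart from Lox and Loxl2 in untreated cells, no neighbours in this order overlapped within a group.

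Added together, the 5 genes went from 372 ± 34.5 to 1647 ± 450 TPM, 4.43 times as high by the means. In TGFB1 replicates 1, 2 and 3 the sum was 5.82, 3.90 and 3.58 times the untreated mean. Lox made up 43.8% ± 1.46 of the family's RNA in untreated cells and 78.1% ± 3.28 with TGFB1. Loxl2 had nearly as large a share as Lox in untreated cells, 40.1% ± 1.45, and 15.96% ± 2.00 with TGFB1. The shares of Loxl1 were 11.5% ± 1.16 and 4.82% ± 1.06, although its own level rose, and those of Loxl3 4.54% ± 0.730 and 1.10% ± 0.228. Of the rise in the summed mean, 88.9% was Lox, 8.44% Loxl2 and 2.65% Loxl1.

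**Figure D2:**
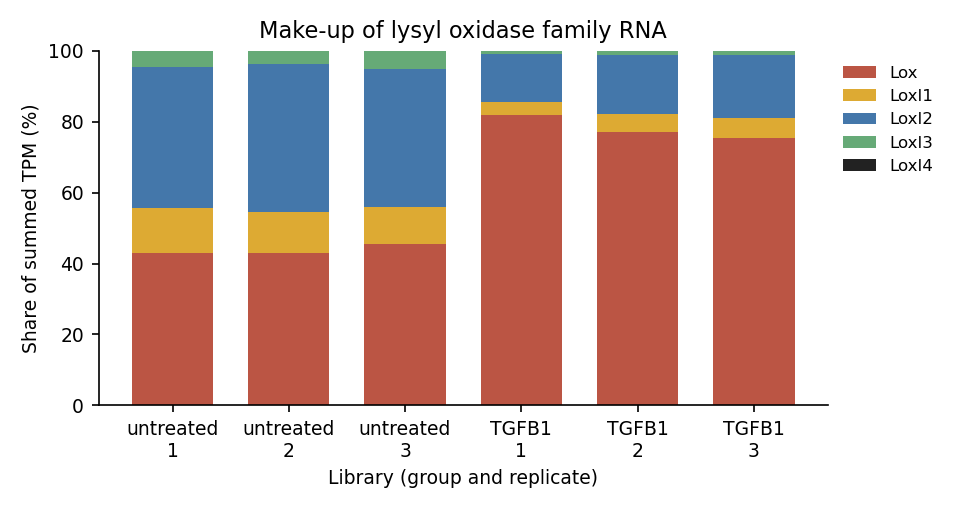
Share of each lysyl oxidase gene in the summed TPM of the family (percent, y axis) in each of the 6 libraries (x axis). Lox accounts for 42.9% to 45.5% in the untreated libraries and 75.5% to 81.8% in the TGFB1 libraries; Loxl4 is too low to be seen.

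Whether 2 members moved by different amounts was asked for all 10 pairs, from the per-library difference of their log2(TPM + 1). The log2 fold change of Lox exceeded that of Loxl1 by 2.12 and that of Loxl2 by 2.17, and the per-library differences did not overlap between groups. By the two-sided exact permutation test p was 0.10 for both pairs, the smallest value that 3 against 3 libraries allow, and 0.125 after Benjamini-Hochberg adjustment over the pairs. The exact permutation p was also 0.10 for Lox against Loxl3 (2.89) and Loxl4 (2.88), and for Loxl1 and Loxl2 against Loxl3 and Loxl4, where differences ran from 0.71 to 0.77. Those against Loxl4 depend on the pseudocount, since Loxl4 is so low: with 0.1 in place of 1, Loxl1 minus Loxl4 was 0.54 and Loxl2 minus Loxl4 was 0.47, the latter with exact permutation p = 0.2. Loxl1 and Loxl2 differed by 0.052, with exact permutation p = 1.0, and the per-library differences ranged from -1.88 to -1.62 without and -1.91 to -1.63 with TGFB1. With the smallest possible p at 0.10, none of the 10 differences could pass 0.05.

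**Figure D3:**
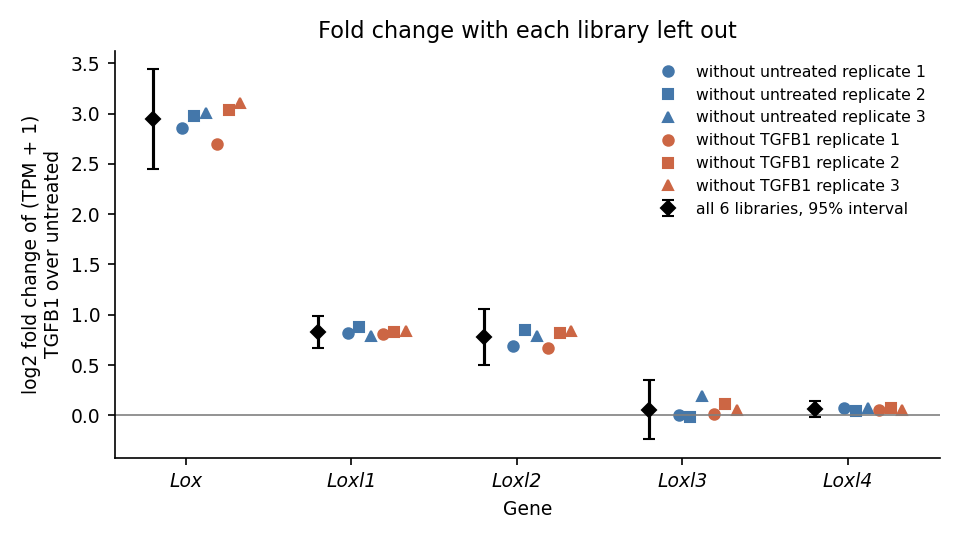
Log2 fold change of (TPM + 1), TGFB1 over untreated (y axis), of each lysyl oxidase gene with all 6 libraries (diamond, 95% interval) and with each library left out (coloured symbols); Loxl4 comes from the fit with no abundance filter. Lox stays between 2.70 and 3.11, and Loxl3 lies on either side of 0.

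The enzymes act on collagens and elastin, and among 8 tested fibrillar collagen genes 3 rose and none fell, nor was any lower at an unadjusted p under 0.05 (median log2 fold change 0.31). Col1a1, which encodes the larger part of type I collagen, rose most, from 6.16, 6.90 and 7.15 TPM to 218, 139 and 126 TPM (log2 fold change 4.35). Col5a1 (1.96) and Col5a2 (1.17), chains of the type V collagen that starts fibrils, rose too. Col1a2, the partner chain of Col1a1, did not pass (142 ± 15.4 and 145 ± 2.55 TPM), nor did Col3a1, the type III collagen gene (345 ± 43.2 and 424 ± 45.8 TPM, limma adjusted p = 0.0898). Col3a1 was called higher, and the list then held 4 such genes, without untreated replicate 1 (adjusted p = 0.0489) or TGFB1 replicate 1 (0.0250). With array weights, which give less weight to libraries that stand apart, the list held 5 such genes. Col3a1 (limma adjusted p = 0.000865) and Col11a2 (0.0203) were then among them. Eln, the elastin gene, was low in both groups, at 0.454 to 0.694 TPM without and 0.525 to 0.646 TPM with TGFB1, under the filter.

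The ratio of Lox to these substrates did not move 1 way. Per length, Lox was 23.1, 24.7 and 24.6 times as abundant as Col1a1 in the untreated libraries and 8.12, 8.03 and 8.004 times in the TGFB1 libraries. Both genes varied widely among the treated libraries, yet their ratio varied by 0.754% (coefficient of variation). Relative to Col1a2 the ratio went from 1.16 ± 0.172 to 8.89 ± 2.70, and relative to Col3a1 from 0.481 ± 0.105 to 3.16 ± 1.40. For Col5a2 it went from 0.325 ± 0.0299 to 1.14 ± 0.271. Thus the ratio was lower with TGFB1 in every library for Col1a1 and higher in every library for Col1a2, Col3a1 and Col5a2.

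**Figure D4:**
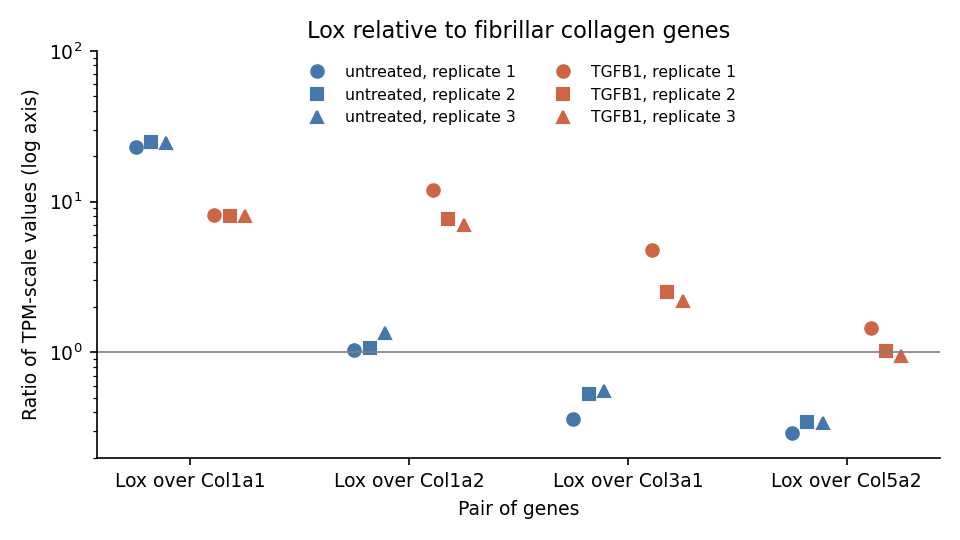
Ratio of the TPM-scale value of Lox to that of 4 fibrillar collagen genes (log axis) in each library; symbols mark the replicate and colours the group, and the grey line is a ratio of 1. Against Col1a1 the treated libraries lie between 8.004 and 8.12, below the untreated ones; against the other 3 genes they lie above.

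Of the 6 collagen IV chain genes, substrates of Loxl2 in basement membranes, 4 rose and none fell (median log2 fold change 0.47). One of the 4, Col4a4, passed the abundance filter only through the TGFB1 group, where it is high; of the 5 chains with a mean of at least 1 TPM in both groups, 3 rose. Col4a1 and Col4a2, the common pair, went from 1615 ± 124 to 2281 ± 263 TPM and from 938 ± 81.5 to 1275 ± 135 TPM. The call of Col4a2 was lost without untreated replicate 1 or 3 or TGFB1 replicate 2 or 3 (limma adjusted p up to 0.0592), and Col4a6, lower at an unadjusted p under 0.05, was called lower without TGFB1 replicate 1. Col4a3 (2.14 ± 0.272 to 11.7 ± 1.73 TPM) and Col4a4 (0.557 ± 0.0484 to 3.65 ± 0.586 TPM) rose by larger factors at low levels. The ratio of Loxl2 to Col4a1 was 0.0922 ± 0.00333 without TGFB1 and 0.1498, 0.0992 and 0.0958 in TGFB1 replicates 1, 2 and 3.

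Among genes of matrix partners and of propeptide processing, of the enzymes or of procollagen, 5 of 7 tested rose and 1 fell (median log2 fold change 0.76). Bmp1, the protease that removes the propeptide of Lox, rose from 41.0, 46.6 and 48.8 TPM to 145, 120 and 116 TPM (log2 fold change 1.46). Its relatives Tll1 and Tll2 stayed under 0.1 TPM in every library. Fn1, the fibronectin gene whose product binds Lox and aids its processing, rose (0.76), as did Thbs1, the thrombospondin gene (1.74). Fbln5, whose product tethers Loxl1 to elastic fibres, rose from 314 ± 22.1 to 1034 ± 51.2 TPM (1.72), so that the ratio of Loxl1 to Fbln5 went from 0.136 ± 0.0156 to 0.0738 ± 0.00260. Efemp2, the fibulin-4 gene whose product binds Lox, rose slightly (0.23, limma adjusted p = 0.0368), a call lost without untreated replicate 1 or 2 or TGFB1 replicate 2 or 3 (adjusted p up to 0.105). Pcolce, the enhancer of procollagen cleavage by Bmp1, fell (-0.92), and Adamts2, a procollagen protease gene, did not pass (-0.24, and 0.050 without TGFB1 replicate 1). Postn, the periostin gene, was under the filter, at up to 0.151 TPM without and 0.275 to 0.797 TPM with TGFB1.

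Of 12 genes for the scaffold of elastic fibres 5 passed the filter, and 3 had a mean of at least 1 TPM in both groups, of which 1 rose and 1 fell. Mfap5, a microfibril protein gene, rose from 1.75 ± 0.760 to 6.57 ± 1.32 TPM. Fbn1, the fibrillin-1 gene, and Fbln2, the fibulin-2 gene, passed the filter only through the TGFB1 group, where they are high, so their calls are not read as a count. Fbn1 rose from 0.294 ± 0.108 to 2.45 ± 0.910 TPM. Fbln2 rose from 0.549 ± 0.261 to 2.07 ± 0.825 TPM, a call lost without untreated replicate 1 or 3. Ltbp2, a fibrillin-binding protein gene, fell from 126 ± 19.0 to 81.5 ± 11.6 TPM, a call lost without untreated replicate 2 or 3. The median log2 fold change of the list turned with the filter, from 0.97 over the 5 genes to -0.55 over the 2 genes, Ltbp2 and Ltbp4, with a mean of at least 5 TPM. The summed level of the list was lower with TGFB1, at 120 to 164 TPM against 179 to 236 TPM, most of it Ltbp2 and Ltbp4. For the low genes the pseudocount set the size of the change: the log2 fold change of Fbn1 ran from 0.49 to 2.67, that of Mfap5 from 0.78 to 1.93 and that of Fbln2 from 0.34 to 1.76 over the alternatives.

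**Figure D5:**
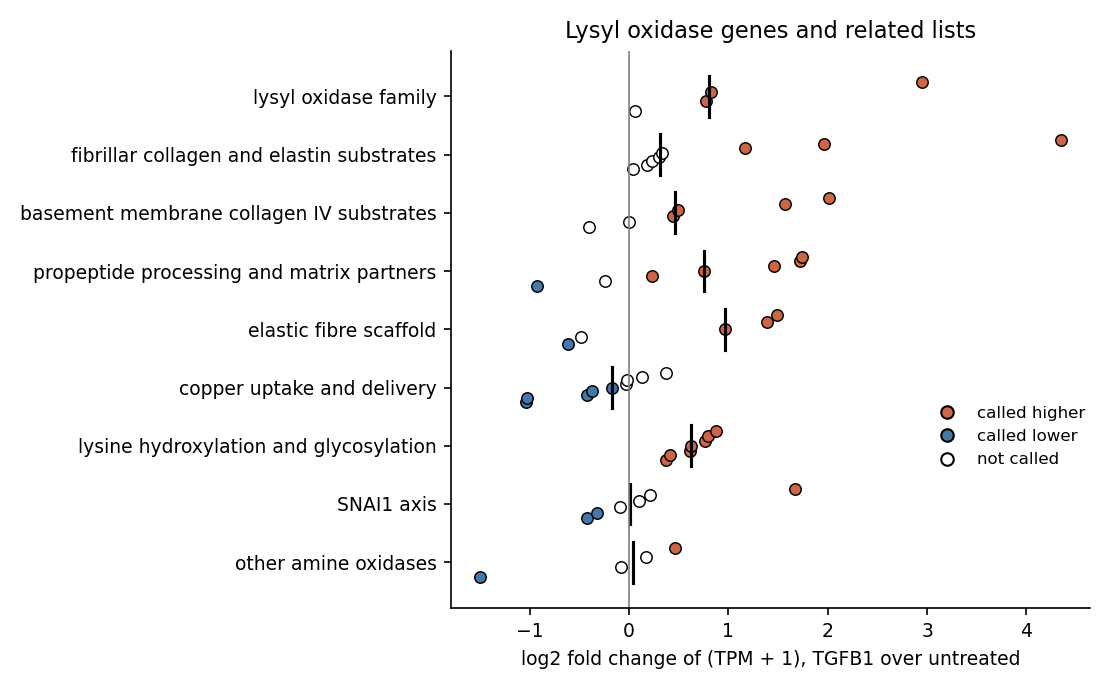
Log2 fold change of (TPM + 1), TGFB1 over untreated (x axis), of every tested gene in the lysyl oxidase family and 8 related lists (rows); filled points passed limma at an adjusted p under 0.05 and the black bar is the list's median. Fbn1, Fbln2 and Col4a4 passed the abundance filter only through the TGFB1 group. All 7 tested genes of lysine hydroxylation and glycosylation rose, while no gene of copper handling did and 5 fell.

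The lysines that lysyl oxidases act on are first hydroxylated and in part glycosylated inside the cell. All 7 tested genes of this step rose (median log2 fold change 0.62), by 0.38 to 0.87. The call of Plod3, a lysyl hydroxylase gene, was lost without any single untreated replicate and without TGFB1 replicate 2 (limma adjusted p up to 0.0998). The largest were Fkbp10, a chaperone gene of the lysyl hydroxylases (168 ± 8.83 to 310 ± 54.2 TPM), Plod1 (14.5 ± 0.324 to 25.9 ± 2.79 TPM) and the telopeptide lysyl hydroxylase gene Plod2 (101 ± 9.97 to 174 ± 27.5 TPM). Their log2 fold changes, 0.87, 0.79 and 0.77, were near those of Loxl1 and Loxl2.

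Copper reaches the enzymes in the secretory pathway, where the pump Atp7a loads it. Of 9 tested genes of copper uptake and delivery none rose and 5 fell by limma (median log2 fold change -0.17). Over all tested genes 15.8% were called higher and 14.6% lower. At an unadjusted p under 0.05, 1 gene of the list was higher, Atp7a. Atp7a was at 10.4, 15.5 and 12.1 TPM without and 15.9, 17.0 and 16.7 TPM with TGFB1. The groups just missed overlap, and it did not pass (log2 fold change 0.38, limma adjusted p = 0.0754) except without untreated replicate 2 or with array weights. Slc31a1, the main copper importer gene (-0.034), Atox1, the chaperone gene that serves Atp7a (0.13), and the reductase gene Steap2 (-0.017) did not pass, though Atox1 was called higher with array weights (adjusted p = 0.0446). The metallothionein gene Mt1 fell from 85.7 ± 20.2 to 41.0 ± 8.90 TPM and Steap3, a metal reductase gene, from 107 ± 13.8 to 53.3 ± 13.5 TPM. Commd1, a copper transport regulator gene, fell by 0.37 on the log2 scale. Slc31a2, a copper transporter gene (-0.42), was lost as a call without untreated replicate 2 or 3. Ccs, the chaperone gene for superoxide dismutase (-0.17, limma adjusted p = 0.04998), was lost as a call when any library but TGFB1 replicate 1 was left out (adjusted p up to 0.156). It was also lost with libraries set to equal totals (limma adjusted p = 0.111). Without untreated replicate 2 or 3, 3 genes of the list were called lower.

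Loxl2 and Loxl3 are known to bind the transcription factor Snai1 in the nucleus. Of 6 tested genes around Snai1, 1 rose and 2 fell (median log2 fold change 0.0074). Over all tested genes 15.8% were called higher and 14.6% lower, so these counts are not read as a result. Snai1 itself was at 1.40, 1.24 and 0.937 TPM without and 10.2, 4.35 and 4.59 TPM with TGFB1 (log2 fold change 1.67, from 0.84 to 2.23 over the alternatives). Cdh1, the E-cadherin gene that Snai1 represses, was at or under 0.104 TPM in every library. Hif1a, whose product drives Lox in hypoxia, fell from 173 ± 20.4 to 138 ± 7.38 TPM and Twist1, another transcription factor gene of epithelial-mesenchymal transition, from 59.5 ± 3.53 to 44.4 ± 6.44 TPM. Both calls were lost without any single untreated replicate and without TGFB1 replicate 3, and that of Hif1a also without TGFB1 replicate 2 (adjusted p up to 0.104 and 0.0988). Hif1a also lost its call with libraries set to equal totals (limma adjusted p = 0.0623).

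Amine oxidases outside the family were read for comparison (median log2 fold change 0.044). Of 4 tested, Smox, the spermine oxidase gene, rose (51.1 ± 1.40 to 71.4 ± 10.3 TPM) and Maoa, the monoamine oxidase A gene, fell (719 ± 88.5 to 281 ± 135 TPM), and both calls were lost without any single untreated replicate. Maoa was at 125 TPM in TGFB1 replicate 1 against 354 and 362 TPM in the others, and its log2 fold change went from -1.50 to -0.99 without that library. The copper amine oxidase genes Aoc1 and Aoc3 stayed under 0.1 TPM in every library. Their relative Aoc2 was at 2.31 to 2.77 TPM without and 2.44 to 3.63 TPM with TGFB1. It did not pass (log2 fold change 0.17, limma adjusted p = 0.415).

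Likeness to each member was measured by Pearson's r of log2(TPM + 1) over the 6 libraries, as a description. These points share their libraries and the treatment, so any gene with a clean group difference scores high: 226 other rows reached 0.99 with Lox, 101 with Loxl1, 58 with Loxl2 and 1 with Loxl3, a predicted gene model. Such models were skipped in naming the nearest genes. The genes most like Lox were Ddit4, a stress-induced inhibitor of mTORC1 (r = 0.9995), Cpped1, a phosphatase gene (0.9994), and the zinc finger gene Zik1 (0.9993). Ddit4 followed the order of Lox among the libraries with a smaller range, 90.3, 95.9 and 97.8 TPM against 184, 160 and 154 TPM. Nearest to Loxl1 were Olfml2b, an olfactomedin-like secreted protein gene (0.9993), Ggh, the gamma-glutamyl hydrolase gene (0.9991), and Mdfi (0.9989). Nearest to Loxl2 were Pofut2, an O-fucosyltransferase gene (0.9994), the myosin gene Myo1e (0.9993) and C1galt1, a core O-glycan synthase gene (0.9988). Loxl3 was nearest to Zfp72 (0.9834), Wdr89 (0.9737) and Spink4 (0.9725).

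Markers of other ovarian cell types were read beside these results, because stromal and vascular cells also express lysyl oxidases. The summed level of 8 stroma and theca markers was 1606 to 1797 TPM without and 754 to 818 TPM with TGFB1, nearly all of it Dcn, the decorin gene, and Star; Lum and Tcf21 stayed under 0.3 TPM. Of the 4 tested, Dcn and Star fell, and the call of Star was lost without any single untreated replicate (limma adjusted p up to 0.0895). The 6 endothelial markers summed to 1.14 to 1.28 and 1.87 to 2.38 TPM. The 6 leukocyte markers summed to 19.2 to 26.7 and 7.71 to 10.1 TPM, with Ptprc under 0.1 TPM throughout. Nearly all of the leukocyte sum was Cd68, the 1 leukocyte marker tested, which fell (log2 fold change -1.27, limma adjusted p = 0.0026). The other leukocyte markers stayed under 1 TPM in every library. The 6 pericyte and smooth muscle markers summed to 1358 to 1746 and 1664 to 2123 TPM, nearly all Acta2. Myh11 and Rgs5 were at or near 0 in every library. Acta2 and Des, the 2 tested, did not pass (limma adjusted p = 0.0998 and 0.0693). Des was at 0.724 to 0.926 and 1.11 to 3.15 TPM, and was called higher without TGFB1 replicate 1 or with array weights. Pdgfrb and Cspg4, both under the filter, were higher in every TGFB1 library than in any untreated one. Pdgfrb was at up to 0.012 TPM without and 0.191 to 1.05 TPM with TGFB1. Cspg4 was at up to 0.0364 and at 0.0609 to 0.437 TPM. The 6 granulosa markers summed to 34.9 to 39.3 and 31.6 to 35.4 TPM, with Fshr listed at 0. Nearly all of this was Foxl2 and Inha, which moved in opposite directions. Foxl2 rose from 18.5 ± 1.15 to 22.7 ± 0.549 TPM, a call lost without untreated replicate 1 or 3 or TGFB1 replicate 2 or 3. Inha fell from 16.9 ± 1.06 to 9.83 ± 2.27 TPM, a call lost without untreated replicate 2 or 3.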

How the data were processed

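RNA-seq abundances of 6 libraries, 3 untreated and 3 TGFB1, were read from 1 deposited table of 35688 gene rows. The values are a TPM-scale signal made by the authors and deposited without counts. Column totals were 1006783 to 1026702 in the untreated and 983434 to 987120.5 in the TGFB1 libraries, so scale differs with the group. They are thus not plain TPM as the planned tests assumed, and the same tests were used. With libraries set to equal totals, 2271 genes were called higher with TGFB1 and 1473 genes lower with TGFB1. Per the submitters' processing notes kallisto 0.44.0, sleuth 0.30.0 and GRCm38 were used; the annotation, the strand setting and the summing to genes were not given in the sources used here.

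Here log2(TPM + 1) of the 12257 rows with a mean of at least 1 TPM was fitted with limma 3.58.1 (lmFit, eBayes with intensity trend, R 4.3.3), with no covariates, two-sided, with Benjamini-Hochberg adjustment over all tested genes and calls at an adjusted p under 0.05. Errors are SD over 3 libraries, and intervals are 95%. Differences between members used exact permutation tests (Python 3.11.15, scipy 1.17.1). Members and lists were chosen with earlier results of these data known. Named were the members, all tested genes of the processing and copper lists, up to 3 called genes per direction of each other list, the TGFB1 check genes (1 is not reported here) and the 3 most correlated genes per member; other genes are named from their values. Sequences come from GENCODE M21 on GRCm38, translated and aligned with Biopython 1.88; 35101 of the table's gene identifiers occur there and 587 do not. The fit was tested on simulated data. Alternatives covered the pseudocount, filter, scaling, limma settings, repeated rows, a replicate block and each library left out.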

Additional observations from a re-analysis of the deposited data

How the results depend on the processing

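Lox, Loxl1 and Loxl2 were called higher in each of the 18 alternatives, and Loxl3 and Loxl4 in none of those run. With a replicate block the log2 fold changes were 2.95 (limma adjusted p = 0.00312) for Lox, 0.83 (0.00317) for Loxl1, 0.78 (0.0142) for Loxl2, 0.058 (0.708) for Loxl3 and 0.064 (0.352) for Loxl4, and 1906 genes were called higher with TGFB1 and 1924 genes lower with TGFB1. The block ended the calls of Plod3 (adjusted p = 0.0517) and Ccs (0.0629), and with it Smad7 (0.0243) and the surface marker Msln (0.0176) were called; among the other listed genes it changed no call. Same-numbered libraries correlated at 0.198, 0.153 and -0.0384 after removal of the group means, and differently numbered ones at -0.227 to 0.184. These ranges overlap and do not settle whether the numbers pair the samples, so the main fit used no block.

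Array weights, which give less weight to libraries that stand apart, called 3340 genes higher with TGFB1 and 3039 genes lower with TGFB1. Leaving out 1 library gave 1113 to 2024 genes higher with TGFB1 and 917 to 1926 genes lower with TGFB1; the lowest counts came without untreated replicate 3, and without untreated replicate 1 they were 1181 and 1130. The log2 fold change of Loxl3 was -0.17 with array weights and -0.018 to 0.19 with 1 library left out. The difference in log2 fold change, Loxl3 minus Loxl4, was -0.24 with a pseudocount of 0.1 (exact permutation p = 0.10, with no overlap between groups), 0.032 with a pseudocount of 5 and -0.068 to 0.12 with 1 library left out. Among genes that were not called, Adamts2 had a log2 fold change of 0.020 with array weights and -0.45 to 0.050 with 1 library left out. Slc31a1 reached 0.015 and Steap2 0.032 when each library was rescaled on all but its mitochondrial genes and 20 top genes, and 0.0069 and 0.024 when libraries were set to equal totals; Steap2 ran from -0.074 to 0.020 with 1 library left out. The cause of these shifts was not tested. The deposited values carry no read counts, so what depth limits, Loxl4 and other genes under 1 TPM above all, could not be given an interval from counting.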

Other observations

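Lox and Col1a1 kept a nearly constant ratio among the treated libraries, a pair chosen after its values were seen. The ratio of Lox to Col1a1 had a coefficient of variation of 3.59% among the untreated and 0.754% among the TGFB1 libraries. Over 12150 gene symbols the median coefficient of variation of the ratio of Lox to each gene was 32.8% in the TGFB1 libraries. Of these symbols 4 varied no more than Col1a1 there, a count that includes Col1a1 itself. No other symbol did so in both groups. The cutoffs were the values of Col1a1 itself, so it met them by construction, and the counts are not a test of a link.

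Some genes of the elastic fibre and fibrillar collagen lists were under the abundance filter and were not tested in the main fit. The 3 given here were chosen after their values were seen, for groups that do not overlap. In the fit with no filter, limma adjusted p was 0.00287 for Mfap4, 0.0465 for Emilin1 and 0.0305 for Col11a1. Because of that choice these p-values are not read as support. Mfap4, a microfibril protein gene, was listed at 0 in the 3 untreated libraries and at 0.625, 0.558 and 0.463 TPM with TGFB1. Emilin1, an elastin-associated glycoprotein gene, was at 0.243, 0.332 and 0.305 TPM without and 0.505, 0.779 and 0.846 TPM with TGFB1. Col11a1, a minor fibrillar collagen gene, was at 0.0262 TPM in untreated replicate 1, listed at 0 in the other untreated libraries, and at 1.56, 0.554 and 0.776 TPM with TGFB1. Of the genes under the filter, 2 of 7 in the elastic fibre list and 2 of 4 in the fibrillar collagen list had groups that did not overlap, TGFB1 higher in each. Among tested genes, all over the filter, that held for 26.3%. The share among all genes under the filter was not counted, so these counts have no like background.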
